A study of Mus musculus with 17 samples.

Results

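LGR5lo cells are intestinal stem cells, as the labels name them, sorted by flow cytometry at the lower of 2 LGR5 levels from LGR5-GFPki mice, in which a knock-in of green fluorescent protein reports Lgr5. Their RNA was compared between mice that had received 12 Gy of gamma-irradiation 3 hours before sorting and mice that had received none. The comparison takes the arrays whose titles name LGR5lo cells: 4 of irradiated and 5 of non-irradiated cells, 9 of the 17 arrays of the series. The other 8 arrays hold LGR5hi cells, sorted from mice of the same genotype, 4 irradiated and 4 non-irradiated, and serve here only for the pooled spread and for values set side by side. All 4 groups carry the knock-in, and each holds 2 arrays of female mice, the others being male. The ages of the mice, the number of mice behind an array and the fluorescence limits of the gates are not given in the sources used here, so that p-values measure the spread between these arrays and may not be that between animals. Values are Agilent single-colour signals on a log2 scale minus the array's 75th percentile, called normalized log2 signal here, so that 1 unit is a doubling and 0 lies at the 75th percentile of the array. Values listed one after another are those of replicates 1 to 5 without and 1 to 4 with irradiation, and a change is the fitted difference in log2 ± its standard error.

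Ionizing radiation breaks both strands of DNA. The kinase ATM senses the breaks and stabilizes p53, a transcription factor that switches on inhibitors of the cell cycle, proteins that open the mitochondrion to start apoptosis, and its own inhibitor Mdm2. Crypts of the small intestine are among the most radiosensitive tissues: cells at their base die or stop dividing within hours, and survivors later rebuild the epithelium. Lgr5, a receptor for R-spondins that strengthens WNT signalling, marks the dividing stem cells at the crypt base, and its level falls as their daughters move up, so that a low gate can hold early progeny and other cells beside stem cells.

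On 8 of the LGR5lo arrays from 60.9% to 73.0% of probes were well above background. Non-irradiated replicate 2 stood apart with 95.6%. Its signals were lifted for dim genes (a median of 2.24 log2 above the rest of its group in the dimmest of 5 classes of genes). They were lower for bright ones (-0.59 in the brightest). Non-irradiated replicate 4 had the lowest 75th percentile of the LGR5lo arrays (327.4) and a header slope of 0 for spiked-in control RNA. That slope was 0.79 on non-irradiated replicate 2 and ran from 0.946 to 0.999 on the remaining LGR5lo arrays. The array weights of limma, low where an array strays from its group, were 0.09, 0.34 and 0.37 for non-irradiated replicates 2, 4 and 5. On the other LGR5lo arrays they ran from 1.05 to 2.19. Slide 1 held the arrays numbered 1 and 2 of both doses and sorts, slide 2 those numbered 3 and 4, and non-irradiated array 5 shared its slide with no other. Epcam, the general epithelial surface marker, was bright and differed by -0.01 ± 0.15 log2 between the doses (adjusted p = 0.97). The leukocyte marker Ptprc was well above background on all 9 arrays, at -2.93 ± 0.81 normalized log2 signal in non-irradiated cells (SD, n = 5) and -3.81 ± 0.31 in irradiated cells (n = 4), and so was Lgr5. A leukocyte transcript was thus measurable beside the epithelial ones.

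Irradiation changed 1822 of 27109 genes in LGR5lo cells at an adjusted p under 0.05 by limma, of which 1127 rose and 695 fell. That is 4.16% of all genes tested called higher and 2.56% called lower, the background against which the counts of each gene group are given. The groups were drawn up with earlier results of these data known, so their counts and medians describe them and are no independent test. Rises were also larger: 81 genes rose and 10 fell at least 8-fold, and 31 rose and 1 fell at least 16-fold. Of the genes called, 1040 that rose and 576 that fell had no overlap between irradiated and non-irradiated arrays, against 2949 of all 27109 genes tested (10.9%). All genes tested had a median of -0.12 log2, against -0.02 where arrays were centred on their medians instead, which moved the calls to 1069 higher and 392 lower. The number of falls thus moved with the scaling more than that of rises. The calls numbered 2321 (1274 higher, 1047 lower) without non-irradiated replicate 2, but 1142, 1034 and 1090 without irradiated replicates 1, 3 and 4. A fit of the 9 LGR5lo arrays alone, without the spread of the LGR5hi arrays, called 804 (575 higher, 229 lower), and array weights called 3423. On slide 2 alone, with 2 arrays per dose, 495 genes were called, and on slide 1 alone, which holds the array that stands apart, 0 were (limma, with 2091 at an unadjusted p under 0.05).

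The largest rise was that of Slc4a11, the gene of a membrane transporter of the bicarbonate transporter family and a p53 target in the metabolic list. Its probe lies at chr2:130509952-130510011 on the minus strand of mouse build mm9, the build of the array's probe coordinates. Its normalized log2 signal was -3.77, -1.60, -4.11, -4.09 and -4.73 on non-irradiated arrays 1 to 5 and 4.48, 4.38, 4.21 and 4.49 on irradiated arrays 1 to 4, a difference of 8.05 ± 0.45 (adjusted p = 6.47e-08). The irradiated arrays lay close together and far above all others, and replicate 2 was the highest of the non-irradiated arrays. Tubb6, a beta-tubulin gene, rose by 6.66 ± 0.48, from -3.70 ± 1.17 (SD, n = 5) to 2.95 ± 0.50 (n = 4). Notch3, the gene of a Notch receptor, rose by 6.46 ± 0.32, and its irradiated arrays (1.75, 2.81, 2.0 and 2.20) lay far above the non-irradiated ones (-4.20, -3.49, -4.30, -5.30 and -4.07).

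Next in size were genes with different roles. Inka2, which encodes an inhibitor of PAK kinases, rose by 6.35 ± 0.60 on its brighter probe and by 4.26 on the other. The LIM domain gene Crip2 rose by 6.21 ± 0.22, and Zfp365, which protects the genome at fragile sites, by 6.09 ± 0.51. Ltf, the gene of the iron-binding antimicrobial protein lactoferrin, went from -2.31 ± 0.38 to 3.70 ± 0.38, a rise of 6.01 ± 0.29. Phlda3, whose product restrains AKT, rose by 6.0 ± 0.23, and the EGF receptor ligand gene Areg by 5.97 ± 0.36. Ddit4l, an inhibitor of mTOR signalling, rose by 5.67 ± 0.67, the chemokine gene Cxcl10 by 5.65 ± 0.85 (1.19 on its dimmer probe), and Gdf15, a secreted stress cytokine, by 5.63 ± 0.25. The list of 15 ended with the hedgehog ligand gene Dhh (5.55 ± 0.44), the cytoskeletal scaffold gene Kank3 (5.32 ± 0.28) and the keratin gene Krt15 (4.90 ± 0.37). All 15 kept their call with each LGR5lo array left out. On Dhh and Inka2 only 1 of 5 non-irradiated arrays was above background, so the size of these rises rests on values near the detection limit.

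Falls were smaller and dimmer. Prelp, a matrix proteoglycan gene, fell by 3.65 ± 0.37 log2, from -2.14 ± 0.58 (SD, n = 5) to -5.79 ± 0.72 (n = 4), and Pimreg, which is expressed in dividing cells, by 3.55 ± 0.33. Sfrp5, a secreted inhibitor of WNT ligands, was the brightest gene among them: it stood at 3.52, 3.15, 3.22, 2.74 and 2.69 on the non-irradiated arrays and at -1.05, 0.47, -0.40 and -0.57 on the irradiated ones, a fall of 3.45 ± 0.34. The histone gene H2bc23 fell by 3.22 ± 0.53, a call that quantile normalization ended, the urea transporter gene Slc14a1 by 3.0 ± 0.27, the kinetochore gene Cenpf by 2.85 ± 0.34 and the transcription factor gene Mycn by 2.70 ± 0.52. Fank1 fell by 2.40 ± 0.47, a call lost where the fit held the 9 LGR5lo arrays alone, and Plekhd1 by 2.48 ± 0.54, a call that quantile normalization or normexp background correction ended. Without non-irradiated replicate 2, whose dim genes are lifted, Prelp was -3.39, Cenpf -2.57, Fank1 -1.99 and Plekhd1 -2.23. Pimreg (-3.565), Sfrp5 (-3.43), H2bc23 (-3.28), Slc14a1 (-3.01) and Mycn (-2.73) moved less. Pimreg and Sfrp5 then had larger falls than Prelp.

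Several of the remaining large falls were in genes known from immune cells. Cd83, a surface protein of dendritic cells and lymphocytes, fell by 2.55 ± 0.40, with non-irradiated arrays from -0.02 to 0.75 and irradiated arrays from -2.65 to -1.17. Apbb1ip, an adaptor of integrin activation in leukocytes, was above background on 4 of 5 non-irradiated and none of the irradiated arrays and was at least 3.1-fold lower. Lag3, an inhibitory receptor of lymphocytes, was at least 3.01-fold lower and Agap2 at least 3.46-fold, each with no irradiated array above background. The calls of all 3 genes were lost with normexp background correction, which models the background of dim spots. The Lag3 call was lost without irradiated replicates 1, 3 or 4 or non-irradiated replicates 4 or 5 (log2 differences of -1.91, -2.45, -2.42, -2.26 and -2.23). The calls of Cdh18 (-2.68 ± 0.66) and Efcab11 (-2.66 ± 0.68) rested in the same way on single arrays, with -2.56 and -2.55 without irradiated replicate 3. Non-irradiated replicate 2, whose dim genes are lifted, moved the sizes more. Without it Cdh18 was -2.08, Efcab11 -2.02, Lag3 -1.81, Agap2 -2.025 and Apbb1ip -2.38. These falls were smaller than without any other array, whereas Cd83 was -2.65. Of 29 leukocyte markers tested, 4 fell (Cd8a, Itgax, Coro1a and Kit) and 2 rose (Cd14 and S100a9), with a median of -0.51 log2. Where the fit held the 9 LGR5lo arrays alone, 1 was called higher and 0 lower. Cd14 was the member that kept its call with each array left out, and Cd8a lost its own without irradiated replicate 3 (-1.27), Itgax without irradiated replicates 2 (-1.96) or 4 (-2.02), and Coro1a, Kit and S100a9 without any of 6 or more arrays. The groups of Itgax, Kit and S100a9 overlapped. Of the 33 listed markers Cd3g, Trac, S100a8 and Cpa3 were too dim to be tested. The mean level of the 29 ranged from -2.20 to -0.60 on non-irradiated and from -1.92 to -1.79 on irradiated arrays. In sorted bulk samples fewer cells of a type and less RNA per cell cannot be told apart, and the part of leukocyte RNA in these falls was not tested.

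**Figure D1:**
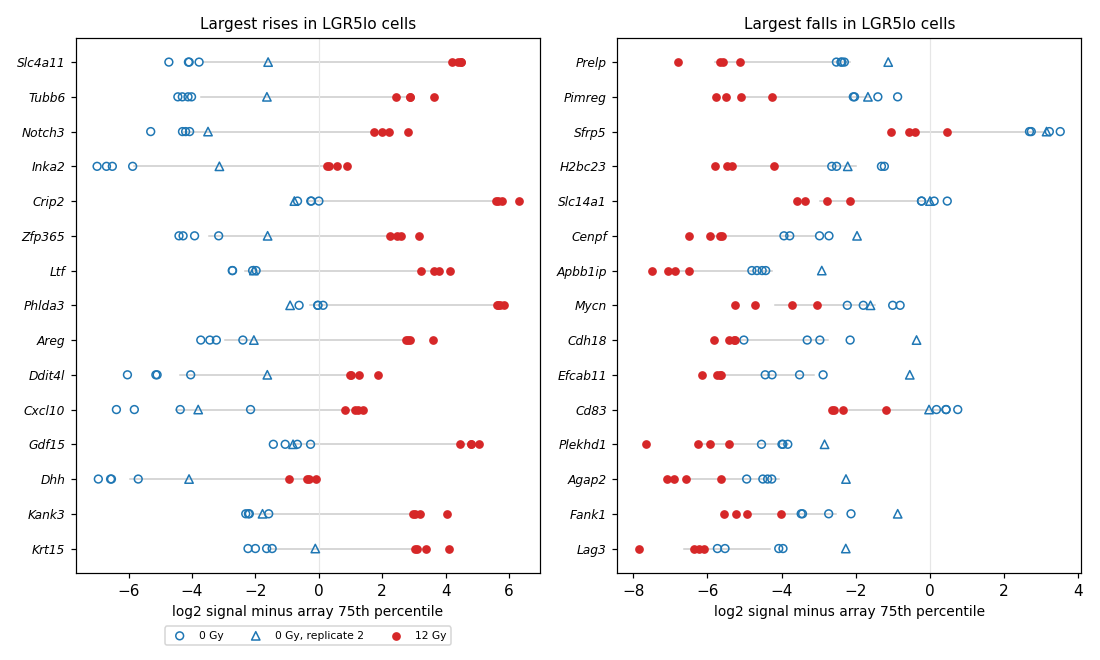
Normalized log2 signal (log2, less the 75th percentile of its array) of the 15 largest rises (left) and 15 largest falls (right) among called genes whose arrays do not overlap, 1 gene per row. Open symbols are non-irradiated LGR5lo arrays, with replicate 2 as a triangle, filled symbols are irradiated arrays, and grey lines join the group means. Irradiated Slc4a11 lies from 4.21 to 4.49, above all its non-irradiated arrays, and the triangle is often the highest open symbol of dim genes.

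Targets of p53 rose in number. The gene of p53 itself was not called: Trp53 stood at 0.77, 0.59, 0.43, 0.25 and -0.08 on the non-irradiated and 0.83, 0.61, 0.55 and 0.57 on the irradiated arrays, a difference of 0.25 ± 0.18 (adjusted p = 0.39) with overlapping groups. p53 is mostly regulated as a protein, which these arrays do not measure. Among 11 genes that feed back on p53, 6 rose and 0 fell. Ccng1, a cyclin that recruits a phosphatase to Mdm2, rose by 3.87 ± 0.17, from 2.02, 1.23, 1.89, 1.80 and 1.59 to 5.56, 5.84, 5.48 and 5.41. Trp53inp1, a p53 cofactor that also sits in the death list, rose by 3.74 ± 0.28 and by 1.62 on its dimmer probe. Mdm2, the ubiquitin ligase that destroys p53, rose by 2.95 ± 0.28, from 2.88 ± 0.60 (SD, n = 5) to 5.83 ± 0.23 (n = 4), and its relative Mdm4 by 1.58 ± 0.23. The median of the 11 was 0.67 log2. The count was 4 without irradiated replicates 2, 3 or 4.

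Of 22 p53 targets in cell cycle arrest and signalling 15 rose and 0 fell, with a median of 2.78 log2. The list was drawn up with earlier results of these data known and holds Inka2, Crip2, Zfp365, Phlda3 and Gdf15 of the largest rises. Its count and median are thus partly set by that choice. Cdkn1a, the gene of the cyclin-dependent kinase inhibitor p21, stood at 2.07, 1.92, 2.10, 2.75 and 2.44 on non-irradiated and 5.13, 5.34, 5.18 and 4.97 on irradiated arrays. This is a rise of 2.90 ± 0.28 (2.31 to 3.63 over its 3 probes), and both groups lay far apart. Phlda3 went from -0.03, -0.91, 0.14, -0.03 and -0.62 to 5.73, 5.85, 5.66 and 5.61 and Gdf15 from -0.26, -0.81, -0.68, -1.06 and -1.43 to 4.79, 5.06, 4.46 and 4.80. Both had tight irradiated groups and no overlap. Dcxr, a dicarbonyl and xylulose reductase, rose by 3.20 ± 0.17. Further members that rose were the kinase genes Plk2 (3.73 ± 0.22) and Plk3 (2.21 ± 0.24), the RNA-binding protein gene Zmat3 (3.12 ± 0.20), and the antiproliferative genes Btg2 (1.24 ± 0.22) and Tob1 (1.23 ± 0.19). Gtse1, which is expressed in G2 and restrains p53, rose by 2.69 ± 0.25.

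Of 17 p53 targets that promote death, 13 rose and 0 fell, with a median of 1.89 log2. Bbc3, the gene of PUMA, a BH3-only protein that frees BAX and BAK, stood at 0.76, 0.08, 0.38, -0.69 and -0.08 and after irradiation at 3.49, 3.97, 3.44 and 3.64, a rise of 3.55 ± 0.26. Bax, the pore former of the outer mitochondrial membrane, rose by 2.25 ± 0.18, from 3.15 ± 0.28 (SD, n = 5) to 5.40 ± 0.11 (n = 4), and Pmaip1, the gene of NOXA, by 1.89 ± 0.24. The groups of all 3 genes were separate. The death receptor genes Tnfrsf10b (2.57 ± 0.18) and Fas (2.26 ± 0.46) rose, as did the nuclease gene Aen (2.27 ± 0.17) and Pidd1, which assembles a caspase-2 platform (2.06 ± 0.18). Apaf1, the scaffold of the apoptosome, rose less, by 0.91 ± 0.14.

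In metabolism and autophagy 10 of 21 p53 targets rose and 2 fell, with a median of 0.61 log2. After Slc4a11 the smallest p belonged to Sesn2, an inhibitor of mTORC1 (2.39 ± 0.15), the lipid hydrolase gene Abhd4 (2.57 ± 0.22) and the ephrin receptor gene Epha2 (2.43 ± 0.26). Aldh4a1 (2.83 ± 0.31) and Cpt1c (3.24 ± 0.61, up to 5.24 on its other probes) rose more, with a larger p. Sesn3, a relative of Sesn2, moved the other way and fell by 1.08 ± 0.17, a call that quantile normalization ended. Of 11 p53 targets in DNA repair only 2 rose and 0 fell. They were Ercc5, an excision repair nuclease (1.71 ± 0.19, with 0.64 on its other probe), and the translesion polymerase gene Polk (1.93 ± 0.25, with 1.21 on its lowest probe). The ribonucleotide reductase subunit gene Rrm2b was 0.71 ± 0.21 (adjusted p = 0.0553), and only 1 of 5 non-irradiated arrays was above background. The repair median of -0.07 log2 turned to 0.03 with median centring. On slides 1 and 2 taken alone the medians of the arrest list were 2.46 and 2.53, and those of the death list 1.95 and 1.64.

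**Figure D2:**
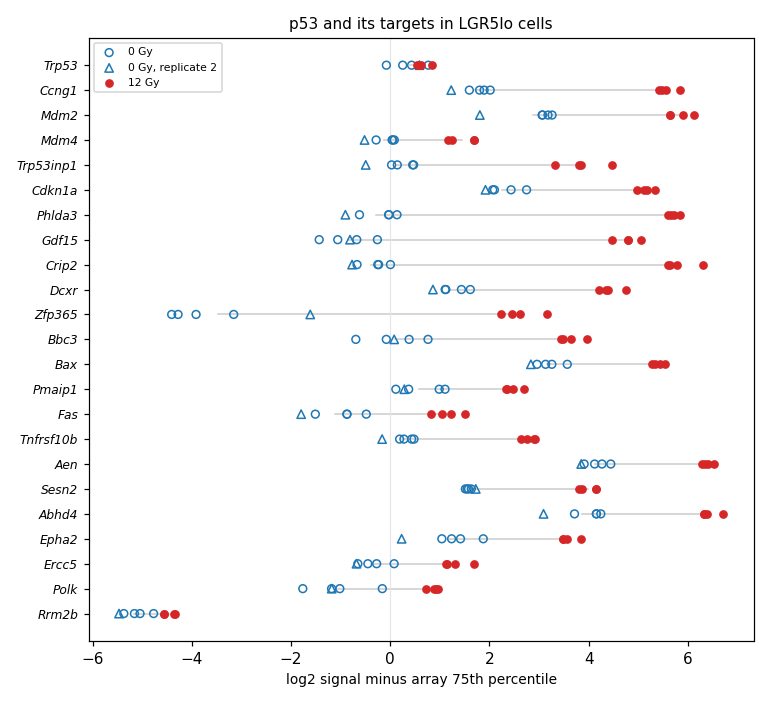
Normalized log2 signal of Trp53 and 22 targets on the 9 LGR5lo arrays, ordered as in the text by role. Open symbols are non-irradiated arrays (replicate 2 as a triangle), filled symbols irradiated arrays, and grey lines join the means. The groups of Trp53 overlap, whereas irradiated Cdkn1a lies from 4.97 to 5.34 against 1.92 to 2.75.

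Promoter windows from RefSeq (mouse build GRCm38.p6, from 250 bases before to 50 bases after each start site) were searched for the p53 element, a pair of adjoining decamers. With every letter matched it stood in 3 of 27025 genes' windows and in none of the 38 p53 targets called higher that have a window. A search that allowed 1 letter to differ, with the C and G at the heart of each decamer kept, was added after this and found it in 22 genes (0.0814%). They included 3 of the 38, namely Ccng1, Gtse1 and Cdkn1a, whose windows are shown 5′ to 3′ on the gene's strand to set the letters of this element beside the rises of 3.87 ± 0.17, 2.69 ± 0.25 and 2.90 ± 0.28 log2. Capitals mark the 20 bases of the element. The windows are chr11:40755237-40755536 (minus strand) for Ccng1, chr15:85859696-85859995 (plus) for Gtse1 and chr17:29090729-29091028 (plus) for Cdkn1a, the latter pair each from 1 of 2 annotated starts.
Ccng1: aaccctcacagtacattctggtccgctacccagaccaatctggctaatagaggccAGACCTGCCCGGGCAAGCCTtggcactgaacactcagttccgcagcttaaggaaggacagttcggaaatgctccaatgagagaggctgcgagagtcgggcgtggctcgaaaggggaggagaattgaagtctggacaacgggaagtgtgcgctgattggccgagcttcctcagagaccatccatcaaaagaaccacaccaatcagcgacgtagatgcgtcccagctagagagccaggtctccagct
Gtse1: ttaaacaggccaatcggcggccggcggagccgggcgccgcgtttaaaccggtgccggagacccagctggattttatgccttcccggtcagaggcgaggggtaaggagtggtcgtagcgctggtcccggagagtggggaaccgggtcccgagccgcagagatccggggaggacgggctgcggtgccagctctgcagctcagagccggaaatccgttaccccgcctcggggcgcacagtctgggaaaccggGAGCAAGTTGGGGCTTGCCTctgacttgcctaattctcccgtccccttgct
Cdkn1a: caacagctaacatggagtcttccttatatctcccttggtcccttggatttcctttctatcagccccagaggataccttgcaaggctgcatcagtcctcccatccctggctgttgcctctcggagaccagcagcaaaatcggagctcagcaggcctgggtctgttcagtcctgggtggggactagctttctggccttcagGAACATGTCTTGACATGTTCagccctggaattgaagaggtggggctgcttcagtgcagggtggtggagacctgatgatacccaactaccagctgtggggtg
The element starts 195 bases before the start site in Ccng1, 51 before it in Cdkn1a and 1 before it in Gtse1. A match is a description of letters and shows no binding in these cells, and the other 35 of the 38 hold no match in this window.

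Of 11 death-promoting members of the BCL2 family 4 rose and 1 fell: Bbc3, Bax and Pmaip1 are shared with the p53 list, Bok rose by 1.55 ± 0.22, and the BH3-only gene Bmf fell by 1.52 ± 0.24. Among 11 survival genes of the BCL2 and IAP families only Mcl1 was called, at 0.64 ± 0.14. Its call was lost without irradiated replicate 3 (0.59) and where the fit held the 9 LGR5lo arrays alone. Bcl2l1, the gene of BCL-XL, was 0.56 ± 0.18 (adjusted p = 0.0736), with 0.15 on its lowest probe. Birc5, the gene of survivin, which is also a mitotic protein, was -0.73 ± 0.23 (adjusted p = 0.0684), with -1.04 on its lowest probe. Of 15 caspases and partners, Pidd1, Apaf1 and Cycs were called higher and 0 lower. Cycs, the gene of cytochrome c, was 0.55 ± 0.15, with 0.21 on its lowest probe. Its call was lost without any of 7 arrays, for example non-irradiated replicate 2 (0.45).

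Of 24 receptors and ligands of the TNF superfamily 11 rose and 2 fell, with a median of 0.92 log2. The receptor gene Tnfrsf18, known as GITR on T cells, rose by 4.83 ± 0.29, and Tnfrsf12a, the receptor for TWEAK, by 2.93 ± 0.25. Tnf itself rose by 2.16 ± 0.35, Cd40 by 2.10 ± 0.36 and the decoy receptor gene Tnfrsf11b by 2.14 ± 0.38. Tnfsf10, the gene of TRAIL, fell by 1.92 ± 0.28, while its receptor gene Tnfrsf10b rose as given above.

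Of 39 genes that sense double-strand breaks, signal the damage or act in homologous recombination 3 rose and 2 fell, with a median of -0.02 log2 (-0.15 to 0.02 with 1 array left out). Mus81, a nuclease for recombination intermediates, rose by 0.98 ± 0.16, and Rad51d by 0.67 ± 0.16 (0.19 on its lowest probe). Rad51b was called at -1.59 ± 0.44, with -0.23 on its other probe. Rad51d lost its call without irradiated replicates 3 (0.60) or 4 (0.66), and Rad51b lost its own without any of 6 arrays. Without irradiated replicates 1, 3 or 4 or non-irradiated replicates 1 or 3 no gene of the list was called lower, and without non-irradiated replicate 5 there were 5. Of 12 genes of non-homologous end joining 0 were called by limma (3 at an unadjusted p under 0.05, median 0.09 log2, and 0.18 without non-irradiated replicate 1).

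Genes of cell division fell. Among 76 genes that act in G2 and mitosis, 28 fell and 0 rose (limma, with 52 lower and 2 higher at an unadjusted p under 0.05), with a median of -0.72 log2 and -0.62 with median centring, where 17 were called. Cdkn3, a phosphatase that acts on CDK1 and CDK2, stood at 1.75, 1.42, 1.73, 0.83 and 0.61 on non-irradiated and -0.73, -1.24, -1.09 and -0.92 on irradiated arrays, a fall of 2.26 ± 0.25. Cenpf went from -2.98, -1.96, -2.72, -3.78 and -3.94 to -5.60, -5.66, -5.94 and -6.51, with 1 of 4 irradiated arrays above background. In both genes the groups were separate. Cdc25b, the phosphatase that activates CDK1 at the entry into mitosis, fell by 1.55 ± 0.23, the mitotic kinase gene Plk1 by 1.25 ± 0.24 and the proliferation marker Mki67 by 0.91 ± 0.18, a call that median centring or a fit of the 9 LGR5lo arrays alone ended.

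Cdk1, the kinase that drives mitosis, was -0.50 ± 0.23 (adjusted p = 0.202) with overlapping arrays, and its partner Ccnb1 fell by 1.0 ± 0.22 (up to -2.07 on its other probes), a call lost without irradiated replicate 4 (-0.94). Further members that fell were Aspm (-1.82 ± 0.28) and Nusap1 (-1.49 ± 0.23), which act on the spindle, Cenpa, the centromeric histone (-1.62 ± 0.26), and Cdc25c (-2.22 ± 0.33). The number called lower ranged from 19 to 34 with 1 array left out, the highest being without non-irradiated replicate 2, and it was 14 where the fit held the 9 LGR5lo arrays alone. The median was -0.76 on slide 1 and -0.87 on slide 2.

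Of 47 DNA replication genes 0 rose and 2 fell, Mcm6 of the replicative helicase (-0.64 ± 0.18) and the clamp loader gene Rfc2 (-0.49 ± 0.14), and both calls were lost without any of 6 or more arrays. Without irradiated replicates 1, 3 or 4 the list held no call. Of 27 G1 cyclins, kinases and regulators 2 rose, among them Rb1, the retinoblastoma gene, by 1.14 ± 0.24, and 1 fell, Mycn as above. Ccnd1, the gene of cyclin D1, was 2.09 ± 0.61 (adjusted p = 0.0531): non-irradiated replicate 4 stood at 0.79, far below the rest of its group (4.75, 4.12, 4.35 and 4.40), and the irradiated arrays from 5.65 to 5.88. Without replicate 4 the difference was 1.37. Of 36 histone genes of the clusters 3 fell, H2bc23, H1f1 (-0.97 ± 0.19) and H2bc6 (-0.77 ± 0.18), and 7 and 5 fell without non-irradiated replicates 2 and 4. H1f1 lost its call where the fit held the 9 LGR5lo arrays alone, and H2bc6 without irradiated replicates 1 (-0.75) or 4 (-0.75). With the 9 LGR5lo arrays alone 1 histone gene of the list was called lower.

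Many genes of G2 and mitosis share the promoter motif TTTGAA, the cell cycle genes homology region, and CCAAT boxes, through which they are repressed when p53 and p21 are active. With both strands searched, TTTGAA stood in the windows of 42 of the 62 tested genes of this list that have one (67.7%) and CCAAT in 46 (74.2%). The shares were 15.9% and 42.1% of the 13796 tested genes with a window, and 20.2% and 41.1% of all 27025 genes. Of the 22 called lower 16 held TTTGAA (72.7%) and 19 CCAAT (86.4%), and of the 40 not called lower 26 (65.0%) and 27 (67.5%). Over all 403 genes with a window that were called lower the shares were 21.3% and 52.6%, and over the 803 called higher 13.8% and 38.2%. The 3 members with the smallest p that hold TTTGAA are shown 5′ to 3′, with TTTGAA and CCAAT on either strand in capitals (no matches overlap), to print the letters behind these shares. The windows are chr14:46760291-46760590 (plus strand) for Cdkn3, chr1:189688037-189688336 (minus) for Cenpf and chr1:139454523-139454822 (plus) for Aspm.
Cdkn3: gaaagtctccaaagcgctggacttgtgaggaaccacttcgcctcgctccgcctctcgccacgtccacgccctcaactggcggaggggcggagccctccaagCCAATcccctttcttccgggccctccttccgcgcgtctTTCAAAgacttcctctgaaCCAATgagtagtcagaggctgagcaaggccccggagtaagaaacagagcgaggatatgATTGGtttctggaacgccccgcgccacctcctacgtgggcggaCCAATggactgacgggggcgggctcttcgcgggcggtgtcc
Cenpf: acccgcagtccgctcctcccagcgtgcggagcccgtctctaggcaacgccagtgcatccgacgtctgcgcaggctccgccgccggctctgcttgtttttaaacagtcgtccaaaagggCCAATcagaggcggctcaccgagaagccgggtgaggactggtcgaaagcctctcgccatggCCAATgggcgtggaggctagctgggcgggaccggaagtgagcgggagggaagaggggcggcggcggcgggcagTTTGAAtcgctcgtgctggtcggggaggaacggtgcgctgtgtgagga
Aspm: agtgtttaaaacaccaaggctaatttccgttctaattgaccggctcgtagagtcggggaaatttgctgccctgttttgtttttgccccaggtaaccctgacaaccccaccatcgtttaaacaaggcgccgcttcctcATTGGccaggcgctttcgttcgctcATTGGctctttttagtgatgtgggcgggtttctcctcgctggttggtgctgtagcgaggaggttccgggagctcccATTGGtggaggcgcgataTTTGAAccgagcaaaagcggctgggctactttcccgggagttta
The TTTGAA motif lies 111 bases before the start site and on the opposite strand in Cdkn3, and 2 and 6 bases after it in Cenpf and Aspm. Cdkn3 holds 4 CCAAT boxes in this window, Aspm 3 and Cenpf 2. The shares describe letters in a window and were not tested.

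**Figure D3:**
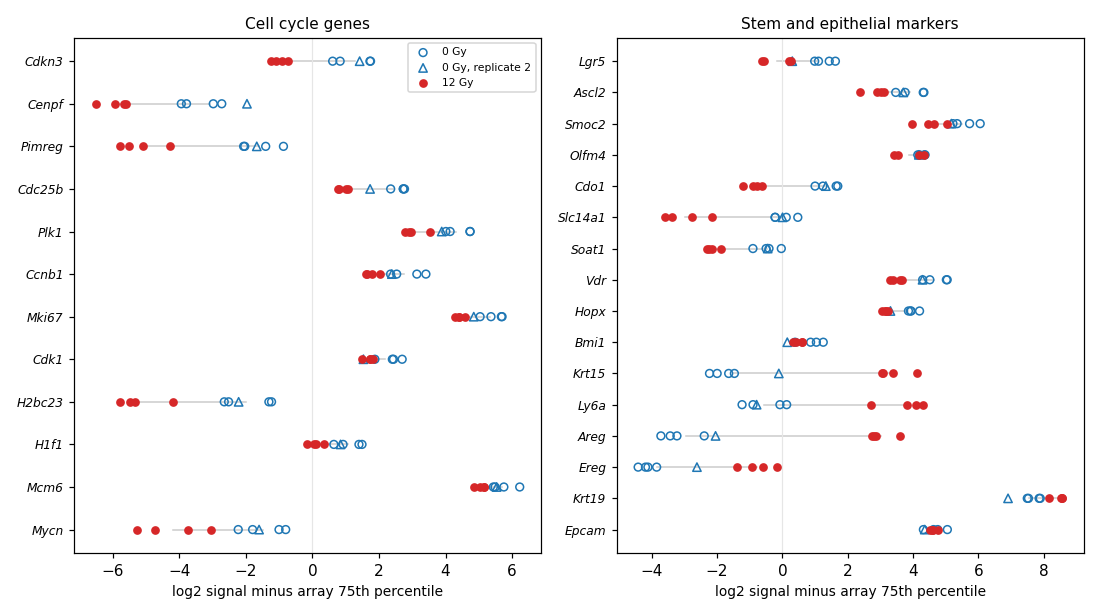
Normalized log2 signal of cell cycle genes (left) and of stem cell, injury-associated and epithelial markers (right) on the 9 LGR5lo arrays. Open symbols are non-irradiated arrays (replicate 2 as a triangle), filled symbols irradiated arrays, and grey lines join the means. Cdkn3 and Cenpf separate by dose and Cdk1 does not, and Krt15, Ly6a, Areg and Ereg lie higher and Lgr5, Ascl2, Cdo1 and Slc14a1 lower on irradiated arrays, while Olfm4, Bmi1 and Epcam overlap.

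Markers of LGR5 stem cells fell and several markers of reserve or regenerating cells rose. Among the 45 markers of LGR5 stem cells, 15 fell and 3 rose, with a median of -0.38 log2 (-0.28 with median centring, where 11 fell, and 8 where the fit held the 9 LGR5lo arrays alone). Lgr5 stood at 1.62, 0.30, 1.43, 1.10 and 0.99 on non-irradiated arrays and -0.63, 0.20, -0.55 and 0.26 on irradiated ones, a fall of 1.27 ± 0.27 (adjusted p = 0.0101). The groups did not overlap, with non-irradiated replicate 2 nearest to the irradiated arrays, and without it the difference was -1.47. Its probe lies at chr10:114887403-114887462 on the minus strand of mm9. Ascl2, a transcription factor of these stem cells, fell by 1.07 ± 0.23, from 3.91 ± 0.39 (SD, n = 5) to 2.84 ± 0.33 (n = 4). Both calls were lost where the fit held only the 9 LGR5lo arrays (adjusted p = 0.069 and 0.0547).

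Cdo1, a cysteine dioxygenase, fell by 2.25 ± 0.17, from 1.69, 1.33, 1.65, 1.24 and 1.0 to -1.20, -0.62, -0.77 and -0.89, and the cholesterol esterification gene Soat1 by 1.69 ± 0.23. Vdr, the vitamin D receptor, fell by 1.15 ± 0.18. Smoc2, a matrix protein gene of this signature, was called at -0.98 ± 0.24, but not without irradiated replicates 1, 3 or 4 (-0.79, -0.96 and -1.02) or non-irradiated replicate 3 (-0.92). Olfm4, a secreted marker of the crypt base, was -0.38 ± 0.23 (adjusted p = 0.319), with irradiated arrays of slide 1 at 3.42 and 3.53 and of slide 2 at 4.19 and 4.33. The members that rose were Cd44 (2.25 ± 0.18), a hyaluronan receptor, Pdgfa (1.33 ± 0.18) and Slco3a1 (0.89 ± 0.18), the last with -0.78 on its lowest probe and not called on the mean of its probes.

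Of 21 reserve and injury-associated markers 10 rose and 2 fell, with a median of 0.91 log2. Krt15 stood at -1.65, -0.11, -1.47, -2.0 and -2.23 on non-irradiated and 3.09, 4.12, 3.38 and 3.04 on irradiated arrays. Ly6a, the gene of the Sca-1 antigen of regenerating epithelium, went from -0.90, -0.79, -1.24, 0.13 and -0.08 to 4.30, 2.72, 4.10 and 3.82, a rise of 4.31 ± 0.40. Both had separate groups, with irradiated replicate 2 the highest for Krt15 and the lowest for Ly6a. Clu, the clusterin gene of injury-responsive crypt cells, rose by 1.21 ± 0.23, Anxa3 by 1.88 ± 0.38 and Anxa8 by 2.58 ± 0.42 on its brightest probe. The size for Anxa8 is uncertain, since its probes reached from 2.58 to 6.34. Hopx, a marker of slow-cycling cells, was called at -0.71 ± 0.18 but not without any of irradiated replicates 1 to 4 or non-irradiated replicates 3 and 5 (-0.68 without irradiated replicate 1). Bmi1, another such marker, was -0.25 ± 0.20 (adjusted p = 0.442).

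Several ligands of the EGF receptor rose. Of 17 genes of the family 6 rose and 2 fell. Areg stood at -3.72, -2.05, -3.44, -2.39 and -3.23 on non-irradiated and 3.61, 2.80, 2.76 and 2.87 on irradiated arrays. The ligand genes Ereg (3.07 ± 0.43), Btc (2.38 ± 0.23) and Hbegf (2.15 ± 0.24) rose as well, together with the receptor gene Egfr (1.37 ± 0.23) and its inhibitor Errfi1 (1.47 ± 0.26). Nrg4, a ligand of another receptor of the family, fell by 1.22 ± 0.18. The list's median of 0.04 log2 was 0.36 without non-irradiated replicate 2.

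Downstream of these receptors, 4 of 18 MAPK feedback genes rose and 0 fell. The smallest p belonged to the phosphatase gene Dusp14 (1.94 ± 0.15) and the ETS factor gene Etv4 (2.11 ± 0.30). Without irradiated replicates 1 or 4 the count was 2. Of 30 AP-1 and immediate early genes 9 rose and 0 fell (20 and 1 at an unadjusted p under 0.05), with a median of 0.70 log2. Fosl1, an AP-1 subunit, stood at -4.06, -2.54, -3.96, -3.71 and -2.41 and after irradiation at -0.04, 0.16, 0.09 and 0.35, a rise of 3.48 ± 0.30. Egr1 rose by 1.81 ± 0.31, Ier3 by 1.55 ± 0.23 and Ier5l by 1.42 ± 0.24. The count was 5 without irradiated replicate 1 and 4 where the fit held the 9 LGR5lo arrays alone. Of 14 KLF factors Klf7 (1.08 ± 0.19) and Klf6 (1.08 ± 0.25) rose and Klf2 was called at -0.93 ± 0.23. Klf6 lost its call without irradiated replicate 1 (1.02), and Klf2 without irradiated replicates 1, 3 or 4 (-0.85, -0.95 and -0.90) or non-irradiated replicate 5 (-0.89).

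NF-kB genes rose: 12 of 26 were higher and 0 lower, with a median of 0.73 log2. Nfkbia, the inhibitor that NF-kB itself induces, stood at 4.61, 4.17, 4.56, 4.19 and 4.0 on non-irradiated and 6.22, 5.78, 6.33 and 6.57 on irradiated arrays, a rise of 1.92 ± 0.18. The subunit genes Nfkb2 (1.74 ± 0.24) and Relb (1.28 ± 0.19, though -0.67 on its lowest probe) rose, as did the kinase gene Ikbke (1.66 ± 0.23). The count was 8 without irradiated replicate 3 and 14 without non-irradiated replicate 2. Of 21 chemokines and cytokines 4 rose and 0 fell. Cxcl16 went from -2.48, -2.48, -2.27, -2.38 and -2.0 to 1.42, 0.76, 1.34 and 1.25, a rise of 3.51 ± 0.17, and the macrophage growth factor gene Csf1 rose by 3.09 ± 0.26 (up to 4.24 on its other probes). Cxcl5, a neutrophil chemokine, was called at 3.77 ± 0.80, but its arrays overlapped: irradiated replicate 2 at -4.05 lay below non-irradiated replicate 2 at -3.75. Without non-irradiated replicate 2, 6 of these genes were called higher.

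Of 25 interferon response genes 3 rose and 0 fell, with a median of -0.11 log2 (-0.24 without non-irradiated replicate 2). Besides Cxcl10, which NF-kB also induces, these were the antiviral genes Mx1 (2.67 ± 0.43) and Bst2 (0.65 ± 0.15), the latter not without irradiated replicates 1 (0.61) or 4 (0.59). Of 8 MHC class II genes 0 were called by limma (2 at an unadjusted p under 0.05), and Cd74, the invariant chain, was 0.59 ± 0.42 (adjusted p = 0.389).

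Of 31 antioxidant and NRF2 genes 9 rose and 0 fell, with a median of 0.44 log2. Mt2, a metal-binding metallothionein, stood at 4.14, 3.47, 4.86, 3.53 and 3.22 on non-irradiated and 8.32, 8.12, 7.73 and 7.55 on irradiated arrays, a rise of 4.09 ± 0.38, and Mt1 rose by 2.11 ± 0.24. The enzymes of glutathione synthesis Gclc (1.49 ± 0.22) and Gss (1.15 ± 0.17) rose too. Of 29 genes of the integrated stress response 2 rose, Sesn2 and Cebpb (1.28 ± 0.18). The asparagine synthetase gene Asns, a target of ATF4, was 0.62 ± 0.18 (adjusted p = 0.0585).

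Among metabolic lists, 17 of 60 genes of ribosome biogenesis were called higher and 0 lower (41 and 0 at an unadjusted p under 0.05), with a median of 0.54 log2. Utp20, a component of the small subunit processome, rose by 1.58 ± 0.12, from 0.20 ± 0.16 (SD, n = 5) to 1.78 ± 0.12 (n = 4). Rrn3, a polymerase I initiation factor, rose by 0.85 ± 0.14, Ddx21 by 0.99 ± 0.17 and Pes1 by 1.02 ± 0.20, with 0.47 and 0.23 on the other probes of the latter pair, and Pes1 was not called on the mean of its probes. The count was 5 without any of irradiated replicates 1, 3 or 4, 8 without non-irradiated replicate 5 and 10 without non-irradiated replicate 3, and 4 where the fit held the 9 LGR5lo arrays alone. Of 28 glycolysis genes 4 rose and 1 fell, with Ldhb at 2.38 ± 0.43. Without irradiated replicates 1 or 3 only 1 was higher. Of 41 genes of mitochondrial respiration 0 were called by limma (1 at an unadjusted p under 0.05, median 0.19 log2, and 0.04 without non-irradiated replicate 2).

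Of 26 Notch pathway genes 3 rose and 2 fell. Besides the receptor gene Notch3, the ligand genes Jag2 and Jag1 rose: Jag2 went from -2.88, -2.40, -2.56, -1.98 and -2.51 to -0.93, 0.34, -0.04 and -0.30, by 2.23 ± 0.26, and Jag1 by 1.39 ± 0.19. Lfng, a glycosyltransferase that tunes the response of Notch to its ligands, fell by 1.92 ± 0.23. Dll4, another ligand, was -0.64 ± 0.23 (adjusted p = 0.115). Of 12 hedgehog genes Dhh alone was called, and the receptor and target gene Ptch1 was -1.21 ± 0.40 (adjusted p = 0.092).

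Of 22 WNT ligands and inhibitors 2 rose and 2 fell. Wnt10a was above background on none of the non-irradiated and all irradiated arrays and was at least 2.52-fold higher, a call that normexp background correction ended. Wnt9a rose by 1.71 ± 0.40, a call lost without irradiated replicate 2 (1.48), and Wnt9b fell by 1.10 ± 0.25, lost without irradiated replicates 1 (-1.05) or 2 (-1.03) or with quantile normalization. Of 27 WNT targets and R-spondin receptors 6 fell and 2 rose, with a median of -0.19 log2 (-0.32 to -0.04 with 1 array left out). Besides Lgr5 and Ascl2, the transcription factor gene Tcf7 fell by 0.99 ± 0.16, a call that quantile normalization or the mean of its probes ended. Without irradiated replicates 1 or 3 the count of falls was 3.

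Of 25 genes of the BMP pathway only Smad6, its intracellular inhibitor, was called (-1.81 ± 0.35), and not with quantile normalization, and Id3 was -0.63 ± 0.18 (adjusted p = 0.0538). Of 19 YAP and TEAD targets and partners F3, the tissue factor gene, rose by 3.07 ± 0.37 and Tead2 fell by 1.18 ± 0.14. Lats2, the kinase that restrains YAP, was called at 1.09 ± 0.24, with 0.04 on its other probe, and not with quantile normalization, normexp background correction or the mean of its probes. Of 37 nuclear receptors the retinoic acid receptor gene Rarg rose by 2.29 ± 0.24 and the bile acid receptor gene Nr1h4 by 1.10 ± 0.24 (not called in a fit of the 9 LGR5lo arrays alone), and 3 fell, among them Vdr and the oestrogen receptor gene Esr1 (-1.70 ± 0.31). Without non-irradiated replicate 2 or irradiated replicate 2 the list held 7 and 6 falls.

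Many cytoskeletal and matrix-adhesion genes rose. Of 55 genes of keratins, junctions and cytoskeleton 18 rose and 2 fell, with a median of 0.38 log2. After Tubb6, the smallest p belonged to the calcium-binding gene S100a11 (2.25 ± 0.22), the laminin gene Lamb3 (1.43 ± 0.16) and the integrin gene Itgb6 (1.35 ± 0.16). Krt19, a keratin of the whole crypt, was bright before and after, at 7.54 ± 0.40 (SD, n = 5) and 8.45 ± 0.20 (n = 4), and rose by 0.91 ± 0.19, a call lost where the fit held the 9 LGR5lo arrays alone. Vim, an intermediate filament of mesenchymal cells, rose by 1.27 ± 0.17, from 1.61 ± 0.20 to 2.88 ± 0.34. Of 16 stromal and endothelial markers Vim and Col4a1 (2.01 ± 0.47, overlapping arrays) were called higher and 0 lower, with a median of -0.41 log2 and mean levels from -3.09 to -1.26 on non-irradiated and from -2.79 to -2.58 on irradiated arrays. The highest of these levels is that of non-irradiated replicate 2, the next being -2.42, and without that array the median was -0.14. Col4a1 lost its call without irradiated replicates 3 (2.04) or 4 (1.96). Of 23 epithelial identity factors 0 rose (1 at an unadjusted p under 0.05) and 2 fell, among them Vdr, and 1 fell without irradiated replicates 1 or 3 or non-irradiated replicates 3 or 5.

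Among markers of mature intestinal cells, calls fell on enteroendocrine genes. Of 38 enteroendocrine genes 3 rose and 3 fell. Vgf, a secreted neuropeptide precursor, stood at -1.76, -1.47, -2.13, -2.01 and -2.47 on non-irradiated and 1.93, 2.58, 1.66 and 1.90 on irradiated arrays, a rise of 3.99 ± 0.35. Tph1, the serotonin synthesis enzyme, rose by 2.10 ± 0.29 and the tachykinin gene Tac1 by 1.62 ± 0.25. Early transcription factors of the lineage were called lower, Neurog3 at -0.90 ± 0.22 (-2.23 on its other probe), Isl1 at -0.75 ± 0.21 and Nkx2-2 at -0.58 ± 0.14 (0.19 on its other probe), but 0 of the 3 without irradiated replicates 1, 3 or 4, and the arrays of Neurog3 and Isl1 overlapped. Of 22 Paneth, 24 goblet, 28 tuft, 41 enterocyte and 7 erythrocyte markers 0 were called by limma (4, 2, 3, 1 and 0 at an unadjusted p under 0.05), with medians of 0.60, 0.13, -0.36, 0.18 and 0.35 log2. Without non-irradiated replicate 2 these medians were 0.36, -0.07, -0.46, -0.07 and 0.39, and that of erythrocytes was -0.13 without irradiated replicate 4. The Paneth median was 1.47 on slide 1 and -0.35 on slide 2, and that of enterocytes 0.74 and -0.39. The mean level of the Paneth markers lay between 4.77 and 5.92 on non-irradiated and between 5.52 and 6.50 on irradiated arrays, and their part in other results was not tested.

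**Figure D4:**
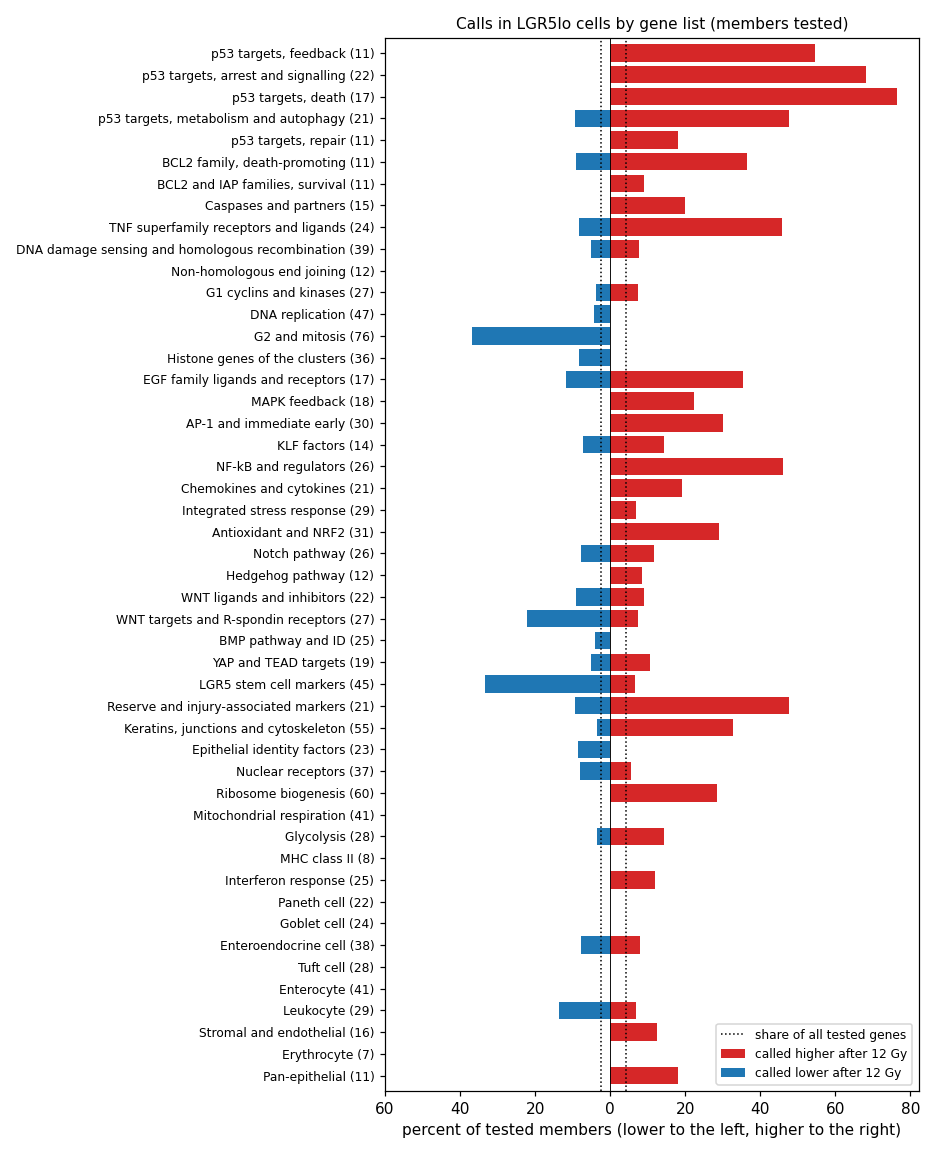
Percent of the tested members of each gene list that were called higher (right) or lower (left) after 12 Gy in LGR5lo cells at an adjusted p under 0.05, with the number of tested members in brackets. Dotted lines are the shares of all tested genes, 4.16% higher and 2.56% lower. The lists were drawn up with earlier results of these data known. The p53 arrest and death lists reach furthest to the right and the G2 and mitosis and LGR5 stem cell lists furthest to the left, and lists of few members move in coarse steps.

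Set beside LGR5hi cells, the genes that rose in LGR5lo cells mostly rose there as well. LGR5hi cells had 5.19% of all genes called higher and 5.39% called lower. Of the 1127 genes called higher in LGR5lo cells 1126 were above 0 in LGR5hi cells and 864 were called higher, and of the 695 called lower 656 were below 0 and 459 called lower. The median of the 1127 was 1.08 log2 in LGR5lo and 1.23 in LGR5hi cells, and that of the 695 was -0.98 and -1.12. No gene called in LGR5lo cells was called in the opposite direction. The genes were chosen by their change in LGR5lo cells, which makes their own median large.

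The test of the difference between both sorts called 1 gene, 0.00369% of those tested, with 1571 at an unadjusted p under 0.05. This was Abcc8, the sulfonylurea receptor subunit of potassium channels, which rose by 3.28 ± 0.23 in LGR5hi cells and was 0.58 ± 0.20 in LGR5lo cells (adjusted p = 0.104). The difference was 2.69 ± 0.30 (adjusted p = 0.00798). Its probe lies at chr7:53359908-53359967 on the minus strand of mm9, and its other probe differed by 0.38 in LGR5lo cells. In LGR5lo cells Abcc8 stood at 2.10, 1.80, 1.67, 1.96 and 2.0 without and 2.56, 2.75, 2.18 and 2.46 with irradiation. The count of called differences was 15 without non-irradiated LGR5lo replicate 2, 10 without irradiated replicate 2, 4 without non-irradiated replicate 3 and 3 without non-irradiated replicate 5. Whether same-numbered arrays of both sorts share a mouse is not given in the sources used here. The deviations of such arrays of 1 dose from their group means had correlations from 0.090 to 0.46 over genes (7 pairs). With dose and number as a random block, which allows for this, 20 differences were called. The median standard error of a difference between the sorts was 0.37 log2, against 0.24 for the effect in LGR5lo cells, and the number of arrays limits this precision.

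For single genes the values are therefore given side by side. Cdkn1a rose by 2.90 ± 0.28 in LGR5lo and 4.70 ± 0.31 in LGR5hi cells (adjusted p of the difference 0.403), and Zfp365 by 6.09 ± 0.51 and 9.16 ± 0.58 (0.448). Jag2 was 2.23 ± 0.26 and 4.02 ± 0.30 (0.368). Phlda3 was 6.0 ± 0.23 and 5.65 ± 0.26 (0.783), and Bbc3 3.55 ± 0.26 and 3.46 ± 0.30 (0.952). Vgf rose by 3.99 ± 0.35 in LGR5lo and 2.21 ± 0.40 in LGR5hi cells (0.649). Of the 15 largest rises in LGR5lo cells 14 had the larger value in LGR5hi cells, with non-irradiated LGR5lo replicate 2 in the fit. Without that array, whose dim genes are lifted, the LGR5lo rises of Slc4a11, Tubb6, Inka2 and Zfp365 were larger (8.56, 7.17, 7.02 and 6.56). Those of Crip2 and Phlda3 were smaller (6.12 and 5.85), and the count of 14 was not taken again. The median of the G2 and mitosis list was -0.72 log2 in LGR5lo and -1.49 in LGR5hi cells, and that of the LGR5 stem cell markers -0.38 and -0.69.

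**Figure D5:**
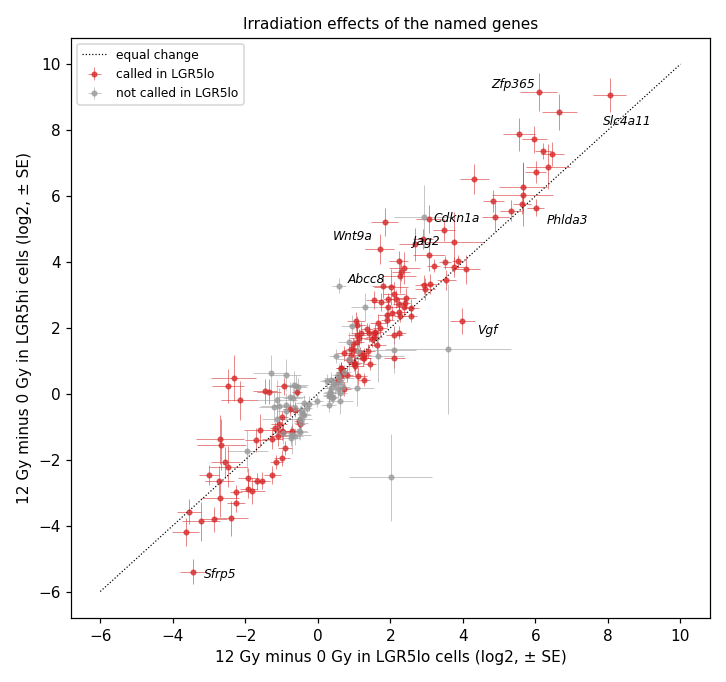
Irradiation effect (12 Gy minus 0 Gy, log2, with standard errors of the fit) in LGR5lo cells (horizontal) and LGR5hi cells (vertical) of the genes named by the fixed rule, coloured by their call in LGR5lo cells. The dotted line marks equal change. The LGR5lo effects include non-irradiated replicate 2, whose dim genes are lifted. Most genes lie near it and large rises lie mostly above it, Abcc8 is the gene with a called difference, and Phlda3 and Vgf lie below the line.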

How the data were processed

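Single-colour Agilent arrays measured total RNA of sorted cells. Per the file headers, the deposited scanner tables hold the processed signal intensity of Feature Extraction 10.7.3.1, the version also given in the submitters' processing notes, already background-subtracted. The deposited series table holds log2 values and served as an alternative. They match the scanner values scaled as below within 0.02 log2 once each probe's mean over the arrays is taken off both. The alignment of probes to mm9 is that of the array design.

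Spots of a probe were averaged without outlier flags, control probes were left out, and log2 intensity was centred on each array's 75th percentile. A gene is its brightest probe among those well above background on at least 4 of the 9 LGR5lo arrays. Other probes are quoted for some of the genes where they differ, not for all. limma 3.58.1 (R 4.3.3) fitted 4 group means over 16 arrays, with a pooled spread (12 residual degrees of freedom) and Benjamini-Hochberg adjustment over 27109 genes at 0.05. Every adjusted p in the text is limma's. Replicate 1 of non-irradiated LGR5hi cells has a damaged scanner file and entered through the series table only. The fit was tested on simulated data. Where no array of a group was above background, a fold is a bound against the lowest signal above background.

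Replicate numbers were checked for pairing, which this check could not settle, and the main fit did not pair LGR5lo arrays across doses. Named were the 15 largest rises and falls with separate groups, up to 4 members with the smallest p of each of 48 lists (1254 genes, 1169 tested), and 21 fixed genes; further genes were chosen after their values were seen. Members and lists were chosen with earlier results of these data known. Some genes so named are not reported here. Alternatives were other scalings, background, filters, probe rules, covariates, blocks, weights and arrays left out. Array number limits the precision.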

Additional observations from a re-analysis of the deposited data

Results flagged for a closer look

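Within the 5 non-irradiated and the 4 irradiated LGR5lo arrays, 1 array stood apart from the others of its group by Dixon's test in 22 of 356 groups of values of the genes named in the report. Chance alone flags about 1 in 20 groups. Non-irradiated replicate 2, whose dim probes are lifted, was the array in 12 of them. It was higher than its group for the dim genes Agap2 (-2.26), Apbb1ip (-2.91), Prelp (-1.12), Ptch1 (-0.13) and Tubb6 (-1.64). It was lower for the brighter genes Egr1 (0.98), Errfi1 (0.37), Klf6 (1.90), Mdm2 (1.81), Nr1h4 (1.51), Pes1 (1.53) and Rrn3 (1.96). For Mdm2 and Tubb6, irradiated and non-irradiated arrays did not overlap with or without it.

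Irradiated replicate 2 was higher than its group for Abhd4 (6.72), Ldhb (1.39), Neurog3 (4.71), Plk2 (1.11) and Wnt10a (-3.13) and lower for Krt19 (8.15). Irradiated replicate 1 was the highest for Areg (3.61) and the lowest for Lag3 (-7.86, below background), and irradiated replicate 3 stood apart for Rrn3 (3.41). Non-irradiated replicate 4 stood at 0.79 for Ccnd1, while the other arrays of its group and all irradiated arrays were far brighter.

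The irradiation effect of Abcc8 was larger in LGR5hi than in LGR5lo cells by 2.69 log2, the one difference called between the sorts.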

How the results depend on the processing

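The count of called genes (1822) and those of rises (1127) and falls (695) stayed within 1.5 times under most alternatives. Exceptions were array weights (3423 called, 1697 higher and 1726 lower) and a fit of the 9 LGR5lo arrays alone (804, 575 and 229). So were slide 2 alone (495, 346 and 149) and slide 1 alone (0, with 2091 at an unadjusted p under 0.05). The fits without irradiated replicates 1, 3 and 4 called 1142, 1034 and 1090, with 361, 318 and 333 falls. For rises this held without irradiated replicate 3 (716). For falls it also held with median centring (392) and without non-irradiated replicate 2 (1047). With 1 LGR5lo array left out the calls ranged from 1034 to 2321, the rises from 716 to 1274 and the falls from 318 to 1047. Slides alone and arrays left out hold fewer arrays, and the cause of the other changes was not tested. The 1 called difference between the sorts became 3 with normexp background correction or slide as a block, 5 with quantile normalization, 6 with a stricter filter, the mean of a gene's probes or sex as a covariate, 12 with the deposited series table, 20 with arm and number as a random block, 42 with array weights and 0 on slide 1 or slide 2 alone (524 and 1166 at an unadjusted p under 0.05), and from 1 to 15 with an array left out. Abcc8 was among the called differences in each of these fits but the single slides.

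Same-numbered LGR5lo arrays of both doses had correlations of -0.11, 0.08, 0.22 and -0.08 of their deviations from the group means. They are labelled with opposite sexes, so they do not share a mouse, but they share a slide. So few correlations cannot show whether such arrays were otherwise handled as pairs, and the main fit did not pair them. The fit with the replicate block called 1991 genes for irradiation and 9 for the difference.

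Of the 162 called genes named in the report, 0 changed direction, and 117 kept their call in every alternative in which they were tested, single slides aside. The fit of the 9 LGR5lo arrays alone ended 33 of these calls, leaving out irradiated replicates 4, 1 or 3 ended 22, 20 and 20, normexp correction 15, quantile normalization 14 and median centring 13. Among larger falls they included H2bc23, Sesn3, Smad6 and Tcf7 with quantile normalization, and Agap2 and Apbb1ip with normexp. Signal near background limits the size of changes in dim genes.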
